A study of Homo sapiens with 9 samples.

Results

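The RAB genes encode small GTPases that mark the membranes of the secretory and endocytic pathways, and their transcripts were followed in glioma cells given one of the 2 forms of a microRNA. Members were all genes whose symbol in the platform annotation is RAB, a number and at most 1 letter from A to F. Probe sets shared with another gene were left out, each gene was read by its brightest remaining probe set, and no filter on brightness was applied. This gave 57 RAB genes of 19775 genes measured in this way. The cells were SW1783, an established human glioma line, and all 9 arrays came from cells transfected with a duplex at 50 nM by Lipofectamine RNAiMAX and left for 24 h. The 3 groups had 3 biological replicates each and differed in the duplex: 1 group received miR-376a*A, another miR-376a*G, and the controls a control miRNA. In miR-376a*A the seed carries the unedited base, and in miR-376a*G a G stands in for the inosine that A-to-I editing leaves there. Controls therefore share the transfection and the duplex load, and every value comes from 1 cell line, 1 dose and 1 time.

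A RAB protein switches between a GDP-bound form held in the cytosol and a GTP-bound form on a membrane. Guanine nucleotide exchange factors (GEFs) turn it on and GTPase-activating proteins (GAPs) turn it off. RABGGTA and RABGGTB form the transferase that attaches the prenyl anchors, helped by the escort proteins CHM and CHML, and GDP dissociation inhibitors take the protein off the membrane again. Active RABs recruit effectors such as tethers, motors and sorting complexes, so each RAB is known for a particular step of traffic. Paralogs named by a letter (RAB7A and RAB7B, for example) have related sequences and often, though not always, related steps.

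The transfected miRNA belongs to the arm now named miR-376a-5p, formerly miR-376a*. Its reference sequence is shown because both transfected forms are versions of it and differ from each other inside the seed. The line below gives the RefSeq mature sequence of MIR376A1 (GRCh38.p14, chr14:101040788-101040809, plus strand), 5′ to 3′, with the seed (bases 2 to 8) in capitals. Which base is exchanged in miR-376a*G is not given in the sources used here.
hsa-miR-376a-5p: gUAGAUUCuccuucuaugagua

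Median deposited signal was 18.8 to 24.0 per array, in linear units. Control replicate 1 stood apart. Its highest rank correlation with any other array was 0.941, against 0.969 to 0.97 for the other 8 arrays, and 852 genes differed by 2-fold or more from the mean of the other 2 control arrays, against 7 to 59 genes on the other arrays. Of the 57 RAB genes, 6 lay that far away on this array. Values without it are therefore given below where the call of a named gene changed, and for some named genes whose value moved. Of 10 glioma and astrocyte markers, 6 were brighter than the median probe set: VIM lay between 2218 and 4401, CD44 between 2026 and 3996 and CHI3L1 between 1816 and 3745. The defining astrocyte marker GFAP was at most 3.75, S100B at most 2.64 and OLIG2 at most 22.9. Of 8 markers of other cell types 2 were brighter than the median probe set (PECAM1, between 57.2 and 125, and RBFOX3), while the immune marker PTPRC was at most 12.2 and the epithelial marker EPCAM at most 7.86. The summed signal of the glioma markers was 7156 to 8314 in miR-376a*A cells, 6999 to 7358 in miR-376a*G cells and 6715 to 12794 in controls, that of the other markers 129 to 151, 115 to 117 and 123 to 226 in the same groups, and their part in the results was not tested. In such bulk samples, fewer cells of a type and less RNA per cell cannot be told apart.

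Most RAB transcripts did not pass the test in any comparison, and those that did formed a short list. With miR-376a*A against control, 5 of 57 RAB genes rose and 0 fell (limma, adjusted p under 0.05 over all 19775 genes). The 5 were RAB7A, RAB27A, RAB29, RAB36 and RAB40B. That is 8.77% of the RAB genes, against 1.71% of all genes called in that comparison (0.946% higher and 0.769% lower). With miR-376a*G against control, 6 RAB genes rose (RAB7A, RAB14, RAB29, RAB36, RAB39B and RAB40B) and 2 fell (RAB12 and RAB31). These 8 are 14% of the RAB genes, against 2.35% of all genes (1.25% higher and 1.09% lower). With miR-376a*A against miR-376a*G, 1 RAB gene was called, RAB31, which was higher in miR-376a*A cells. That is 1.75% of the RAB genes, near the 1.36% of all genes (0.748% higher and 0.612% lower). Called genes are more frequent among bright genes, and 50 of the 57 RAB genes were brighter than the median probe set. When the 12505 genes above that median were tested alone, 3.33% were called in miR-376a*A cells, 4.6% in miR-376a*G cells and 2.65% between the forms, and the RAB counts were 5, 7 and 1. The 5 were not the same: RAB18 came in and RAB29 was lost (limma adjusted p = 0.0539). The 7 lacked RAB39B, whose probe sets lie below that median.

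The median of the RAB genes lay close to that of all genes. Their median log2 fold change was 0.04 with miR-376a*A against control and 0.01 with miR-376a*G against control, while the median of all genes was 0.00 in both. It was 0.02 between miR-376a*A and miR-376a*G. Single genes spanned -1.13 to 1.27 in miR-376a*A cells, -1.13 to 1.21 in miR-376a*G cells and -0.98 to 0.71 between the forms. The arrays of miR-376a*A lay wholly above the controls for 10 RAB genes (7.92% of all genes did so) and wholly below for 3 (8.06% of all genes). Those of miR-376a*G lay above the controls for 11 RAB genes (8.73% of all genes) and below for 6 (8.96%). The arrays of miR-376a*A lay above those of miR-376a*G for 14 RAB genes (10.4% of all genes) and below for 9 (11.5%). Both comparisons with control use the same 3 control arrays, so their values are set side by side and are not independent of each other.

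**Figure D1:**
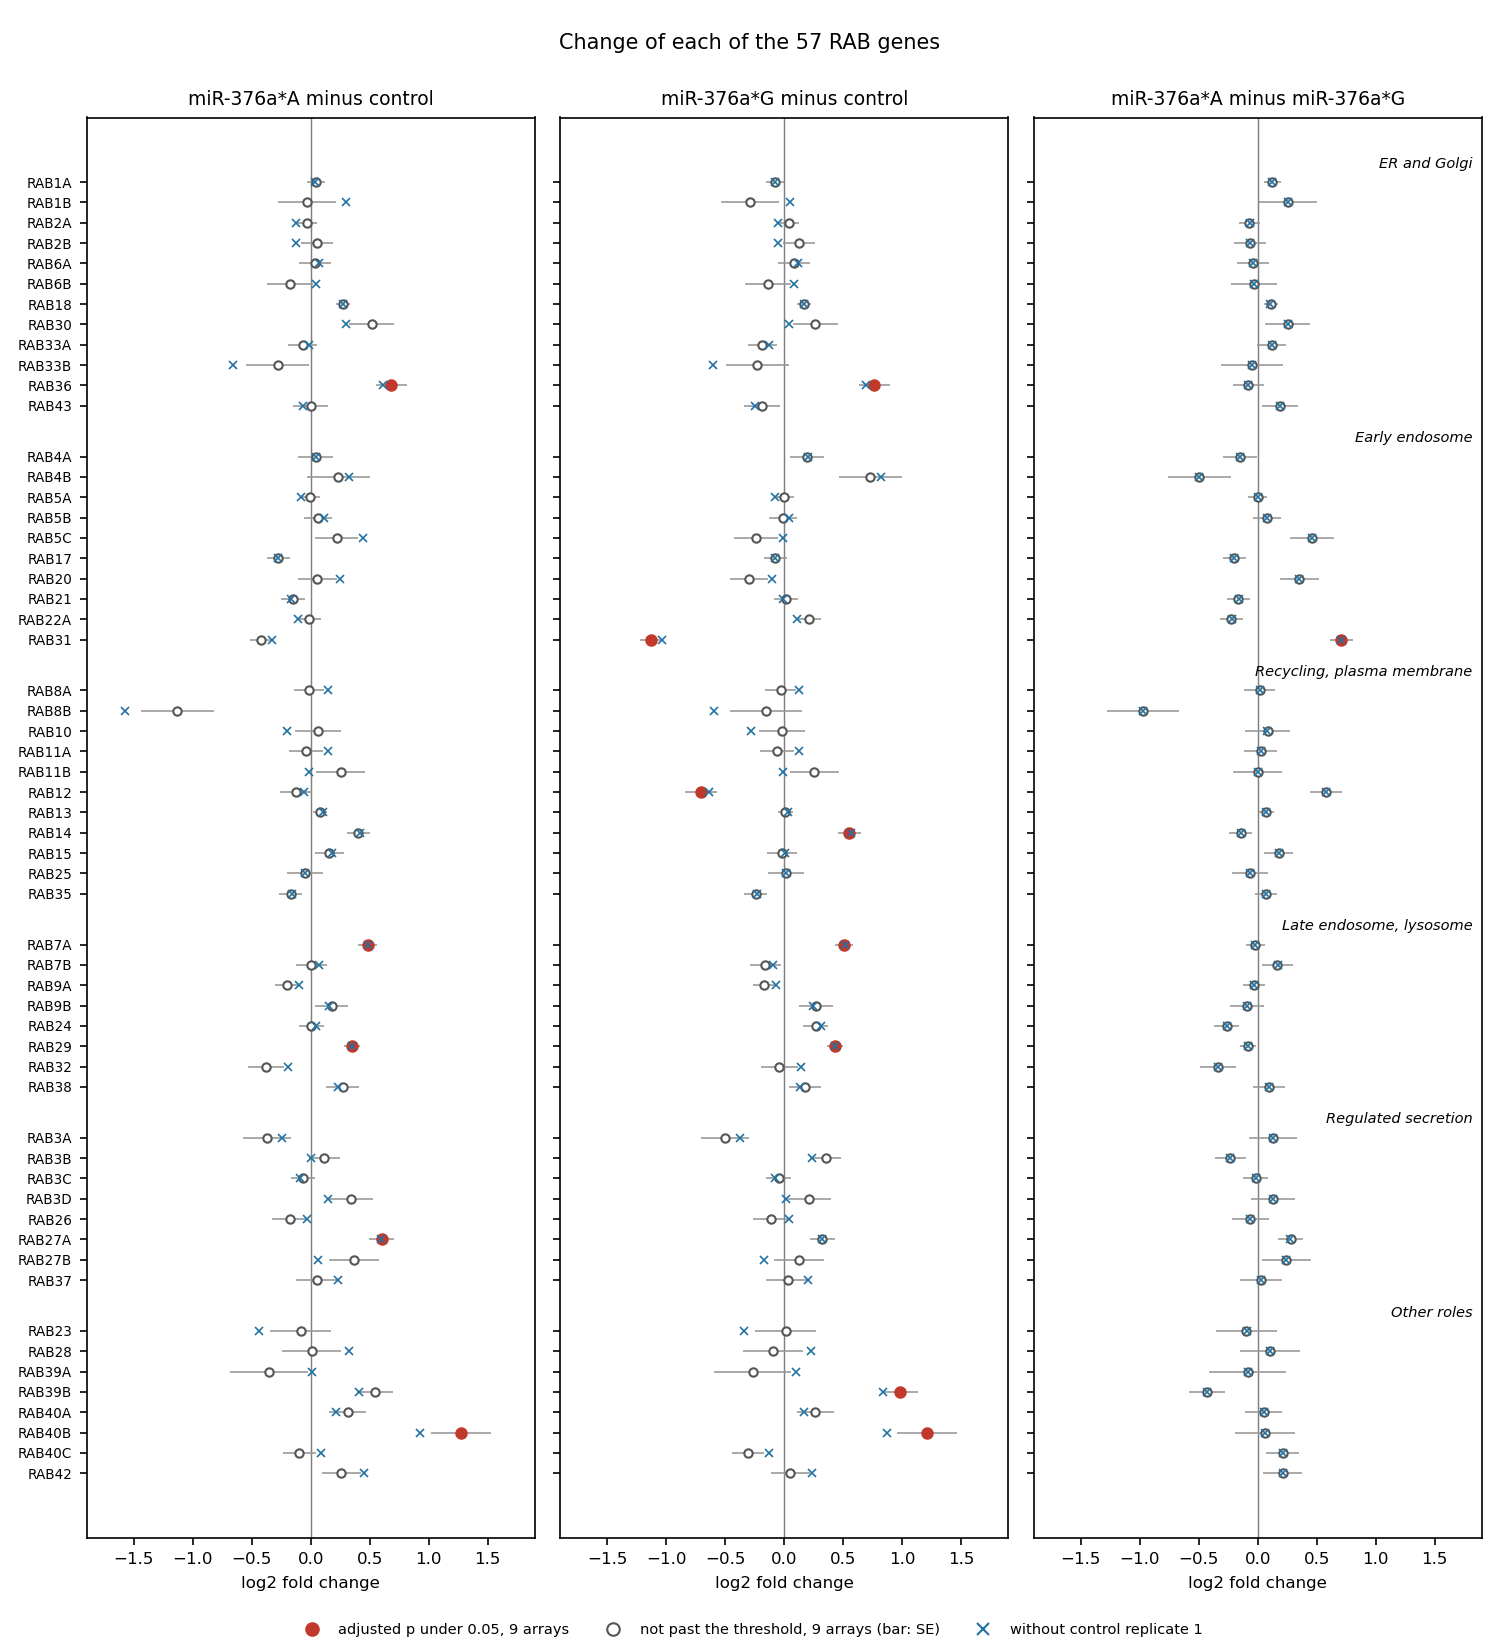
Log2 fold change of each of the 57 RAB genes, grouped by role, in the 3 comparisons. Filled circles mark adjusted p under 0.05 over all genes, open circles the rest, bars the SE, and crosses the value without control replicate 1. Most genes sit near 0, and RAB31 is the 1 filled circle in the right panel.

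Leaving out control replicate 1 raised the counts of the whole table and of the RAB genes. With miR-376a*A against control, 12 RAB genes were then called (8 higher and 4 lower, 21.1%), against 6.06% of all genes (3.00% higher and 3.06% lower). With miR-376a*G against control, 10 were called (6 higher and 4 lower, 17.5%), against 8.28% of all genes (4.06% higher and 4.22% lower). Between miR-376a*A and miR-376a*G, 5 were called (4 higher and 1 lower, 8.77%), against 4.92% of all genes (2.64% higher and 2.28% lower). The calls in miR-376a*A cells rested on every array of that group. When any single one of the 3 miR-376a*A arrays was left out, 0 RAB genes were past the limma threshold in that comparison. Calls over all genes fell too, from 1.71% with all 9 arrays to 0.718%, 0.673% and 0.647% without miR-376a*A replicate 1, 2 and 3. With all 9 arrays, 13 of 57 RAB genes and 2342 of all 19775 genes had an unadjusted p under 0.05 in that comparison. Without a single miR-376a*G array, or without control replicate 3, 1 RAB gene was past the threshold in that comparison (RAB7A). Of all genes, 1.08% to 1.39% were called in those fits. In the comparison of miR-376a*G with control the RAB count was 2, 1 and 3 without miR-376a*G replicate 1, 2 and 3. Over all genes 0.87%, 0.925% and 1.01% were called there, against 2.35% with all 9 arrays. The RAB count was 4 to 6 without a miR-376a*A array, which enters only through the shared spread and scaling. In those fits 1.33% to 1.43% of all genes were called. RAB31 passed whichever array was left out. In that comparison RAB12, RAB14 and RAB40B were lost without any single array of either form, RAB36 without any miR-376a*G array or miR-376a*A replicate 2, RAB7A and RAB29 without miR-376a*G replicate 1 or 2, and RAB39B without miR-376a*G replicate 2 or 3. RAB12 was also lost without control replicate 2, and RAB40B without control replicate 3.

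Late endosomes and lysosomes are served by RAB7A, RAB9A, RAB29, RAB32 and their relatives, and 2 of the 8 measured members rose with each form while none fell, where 0.946% of all genes rose in miR-376a*A cells and 1.25% in miR-376a*G cells. RAB7A drives the maturation of late endosomes and their fusion with lysosomes. Its signal was 457, 435 and 463 in miR-376a*A cells, 485, 476 and 430.0 in miR-376a*G cells and 301, 333 and 309.6 in controls. All 6 arrays of the miRNA forms lay above all 3 controls. On the log2 scale the change was 0.48 in miR-376a*A cells (SE 0.08, 1.4-fold, limma adjusted p = 0.0181) and 0.51 in miR-376a*G cells (SE 0.08, 1.42-fold, limma adjusted p = 0.0124). The second bright RAB7A probe set gave 0.46 in miR-376a*A and 0.42 in miR-376a*G cells, neither past the threshold, and the 5 dimmer ones lay between -0.31 and 0.45. The paralog RAB7B, known from late endosome to Golgi transport, had signals of 107, 88.1 and 111 in miR-376a*A cells, 83.1, 88.2 and 95.8 in miR-376a*G cells and 106, 89.4 and 109.6 in controls. Its groups overlapped in both comparisons with control, with log2 fold changes of 0.00 in miR-376a*A and -0.16 in miR-376a*G cells. The difference between the paralogs was not tested.

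RAB29, which recruits the kinase LRRK2 to Golgi and lysosomal membranes, showed the same layout. Its signal was 525, 498 and 509 in miR-376a*A cells, 555, 547 and 529 in miR-376a*G cells and 379, 409 and 384 in controls, and the controls were the lowest 3 of the 9 arrays. The means were 511 ± 13.6 in miR-376a*A cells, 544 ± 13.4 in miR-376a*G cells and 391 ± 16 in controls (SD, n = 3 each). The fitted log2 change was 0.35 in miR-376a*A cells (SE 0.07, limma adjusted p = 0.0391) and 0.43 in miR-376a*G cells (SE 0.07, limma adjusted p = 0.0128). A second RAB29 probe set was past the threshold in both, at 0.46 in miR-376a*A and 0.57 in miR-376a*G cells. The other 6 late endosome members stayed between -0.38 and 0.27 in miR-376a*A cells and between -0.17 and 0.27 in miR-376a*G cells. Their lowest adjusted p-values (limma) were 0.375 in miR-376a*A and 0.291 in miR-376a*G cells. RAB9A, which returns mannose 6-phosphate receptors to the Golgi, was at -0.20 in miR-376a*A and -0.17 in miR-376a*G cells. RAB32, a RAB of melanosomes and related organelles, was at -0.38 in miR-376a*A and -0.04 in miR-376a*G cells, and at -0.19 in miR-376a*A and 0.14 in miR-376a*G cells without control replicate 1.

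At early endosomes, RAB31 fell in miR-376a*G cells and was the one member called. RAB31 belongs to the RAB5 subfamily and acts between the trans-Golgi network and endosomes. Its signal was 354, 387 and 375 in miR-376a*A cells, 227, 208 and 232 in miR-376a*G cells and 548, 455 and 486 in controls. The 3 groups did not overlap: miR-376a*G lay lowest, miR-376a*A between, and controls highest. The means were 372 ± 16.8 in miR-376a*A cells, 223 ± 12.4 in miR-376a*G cells and 496 ± 46.9 in controls (SD, n = 3 each). With miR-376a*G the log2 fold change was -1.13 (SE 0.10, 2.18-fold lower, limma adjusted p = 0.00075). With miR-376a*A it was -0.42 (SE 0.10) and did not pass the threshold (limma adjusted p = 0.0818), but it passed without control replicate 1, at -0.33 (limma adjusted p = 0.03). The direct difference, miR-376a*A minus miR-376a*G, was 0.71 (SE 0.10, 1.63-fold, limma adjusted p = 0.00758). That call was lost without miR-376a*A replicate 2 or 3 and without miR-376a*G replicate 2, with adjusted p-values of 0.0599, 0.0564 and 0.055 (limma). All 3 RAB31 probe sets were past the threshold in miR-376a*G cells, at -1.13, -1.03 and -1.16, and their differences between the forms were 0.71, 0.76 and 0.72, of which the second did not pass it (limma adjusted p = 0.113 over all single-gene probe sets).

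The other 9 early endosome members were not called. They lay between -0.28 and 0.23 in miR-376a*A cells and between -0.30 and 0.73 in miR-376a*G cells, with lowest adjusted p-values (limma) of 0.278 in miR-376a*A and 0.253 in miR-376a*G cells. RAB5A, a master regulator of early endosome fusion, was at 1002, 959 and 1084 in miR-376a*A cells, 1042, 1001 and 959 in miR-376a*G cells and 932, 1031 and 1014 in controls, so its groups overlapped throughout. The log2 fold change of this gene was 0.00 in miR-376a*A cells and 0.00 in miR-376a*G cells. RAB5C, its paralog with an overlapping role, was at 493, 456 and 482 in miR-376a*A cells, 290.0, 388 and 362 in miR-376a*G cells and 546, 355 and 344 in controls. Against control its log2 fold change was 0.22 in miR-376a*A and -0.24 in miR-376a*G cells. Without control replicate 1 it was 0.44 in miR-376a*A and -0.01 in miR-376a*G cells. The difference between the forms for RAB5C was 0.46 (limma adjusted p = 0.486), and without control replicate 1, which enters only through the shared spread and scaling, the adjusted p was 0.0331. RAB4B, a RAB of rapid recycling, had the highest value of the group in miR-376a*G cells, at 0.73 (limma adjusted p = 0.253), but its single-gene probe set is dim. Of the 3 miR-376a*A arrays, replicate 3 read 44.2 against 15.1 and 12.1 on the others. That array enters the comparison of miR-376a*G with control only through the shared spread and scaling. Without it RAB4B passed the threshold in miR-376a*G cells, at 0.73 (limma adjusted p = 0.0397).

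At the endoplasmic reticulum and Golgi, RAB36 rose with both forms and the other 11 measured members were not called. RAB36 is a Golgi-linked RAB that has been tied to the positioning of late endosomes and lysosomes. Its signal was 87.3, 71.5 and 64.3 in miR-376a*A cells, 75.9, 81.4 and 80.6 in miR-376a*G cells and 38.7, 44.9 and 44.6 in controls, with every control below every other array. In log2 units the change was 0.68 in miR-376a*A cells (SE 0.13, 1.6-fold, limma adjusted p = 0.0384) and 0.76 in miR-376a*G cells (SE 0.13, 1.70-fold, limma adjusted p = 0.02). RAB36 has 1 probe set on this array, so no second reading was possible.

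The housekeeping RABs of the early secretory pathway were bright and not called. RAB1A, which acts in transport from the endoplasmic reticulum to the Golgi, was at 1754, 1716 and 1751 in miR-376a*A cells, 1516, 1522 and 1629 in miR-376a*G cells and 2117, 1524 and 1669 in controls, with log2 fold changes of 0.04 in miR-376a*A and -0.08 in miR-376a*G cells. Its paralog RAB1B was at -0.03 in miR-376a*A and -0.29 in miR-376a*G cells, with control replicate 1 at 756 against 421 and 328 on the other control arrays, and at 0.30 in miR-376a*A and 0.05 in miR-376a*G cells without that array. RAB2A, which also acts between the endoplasmic reticulum and the Golgi, was at -0.03 in miR-376a*A and 0.04 in miR-376a*G cells. RAB30, a Golgi RAB, had the second largest value of the list in miR-376a*A cells at 0.52, and those arrays lay above all controls, but it was not past the threshold (limma adjusted p = 0.314) and was at 0.30 without control replicate 1.

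A pair of further genes of this list, RAB18 and RAB33B, came past the threshold without control replicate 1 and are named because of that, after their values were seen. RAB18, a RAB of the endoplasmic reticulum and lipid droplets, was at 1149.8, 1153 and 1192 in miR-376a*A cells, 1087, 988 and 1093 in miR-376a*G cells and 1003, 920.4 and 917 in controls. Fitted on the log2 scale, its change in miR-376a*A cells was 0.28 (limma adjusted p = 0.0607), and 0.27 without that array (limma adjusted p = 0.0241). RAB18 was also past the threshold in miR-376a*A cells when genes below the 50th percentile were left out and when arrays were weighted by quality (limma adjusted p = 0.0478 and 0.0147). RAB33B, a Golgi RAB that binds the autophagy protein ATG16L1, was at 29.2, 32.3 and 24.6 in miR-376a*A cells, 30.3, 29.9 and 30.3 in miR-376a*G cells and 20.1, 53.5 and 58.9 in controls. It was at -0.28 in miR-376a*A and -0.23 in miR-376a*G cells with all arrays and at -0.66 in miR-376a*A and -0.60 in miR-376a*G cells without control replicate 1 (limma adjusted p = 0.00926 for miR-376a*A and 0.0118 for miR-376a*G).

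Among the 11 RABs of recycling endosomes and of transport to the plasma membrane, RAB14 rose and RAB12 fell in miR-376a*G cells, and none was called in miR-376a*A cells. RAB14, which works between the Golgi and endosomes, was at 495, 484 and 535 in miR-376a*A cells, 571, 560.3 and 553 in miR-376a*G cells and 363, 425 and 329.8 in controls. Both forms lay above all controls. The log2 fold change was 0.55 in miR-376a*G cells (SE 0.10, 1.46-fold, limma adjusted p = 0.0221) and 0.40 in miR-376a*A cells (limma adjusted p = 0.0935). Without control replicate 1 the value in miR-376a*A cells passed, at 0.42 (limma adjusted p = 0.0442). The other RAB14 probe sets gave 0.69 and 0.49 in miR-376a*G cells with all arrays, neither past the threshold. Without control replicate 1 the first of these passed, at 0.43 (limma adjusted p = 0.00778), and the second did not, at 0.46 (limma adjusted p = 0.0548). RAB12, known for carrying the transferrin receptor from recycling endosomes to lysosomes, was at 174, 201 and 182 in miR-376a*A cells, 124, 107 and 132 in miR-376a*G cells and 209.7, 229 and 176 in controls. The miR-376a*G arrays lay below all others, while miR-376a*A and controls overlapped. On the log2 scale the change was -0.70 in miR-376a*G cells (SE 0.13, 1.63-fold lower, limma adjusted p = 0.0298) and -0.13 in miR-376a*A cells. The other 2 RAB12 probe sets gave -0.35 and -0.11 in miR-376a*G cells and were not past the threshold. The difference between the forms for RAB12, 0.58, missed the threshold with all arrays (limma adjusted p = 0.0957) and passed without control replicate 1 (limma adjusted p = 0.0246).

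RAB8B was the RAB gene with the lowest value against control in the miR-376a*A cells, and its result turned on 1 control array. RAB8B shares with RAB8A a role in transport from the Golgi to the plasma membrane. Its signal was 128, 126 and 108 in miR-376a*A cells, 244, 256 and 268 in miR-376a*G cells and 137, 389.7 and 398 in controls. All 3 miR-376a*A arrays lay below all others, and control replicate 1 was the nearest to them. With all arrays the log2 fold change was -1.13 in miR-376a*A cells (SE 0.31, limma adjusted p = 0.138), -0.15 in miR-376a*G cells (limma adjusted p = 0.882) and -0.98 between the forms (limma adjusted p = 0.269). Without control replicate 1 these were -1.57 in miR-376a*A cells (SE 0.07, limma adjusted p = 2.2e-05), -0.59 in miR-376a*G cells (limma adjusted p = 0.00218) and -0.98 between the forms (limma adjusted p = 0.000116). Another RAB8B probe set gave -0.85 in miR-376a*A cells with all arrays and -1.23 without control replicate 1, while a further one gave 0.09 with all arrays and 0.13 without it. The paralog RAB8A was at -0.02 in miR-376a*A and -0.03 in miR-376a*G cells. The brightest RABs of this list, RAB10 and RAB13, which act in transport to the cell surface and to cell junctions, lay between -0.02 and 0.08 in both comparisons with control, while RAB10 was at -0.20 in miR-376a*A and -0.28 in miR-376a*G cells without control replicate 1.

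**Figure D2:**
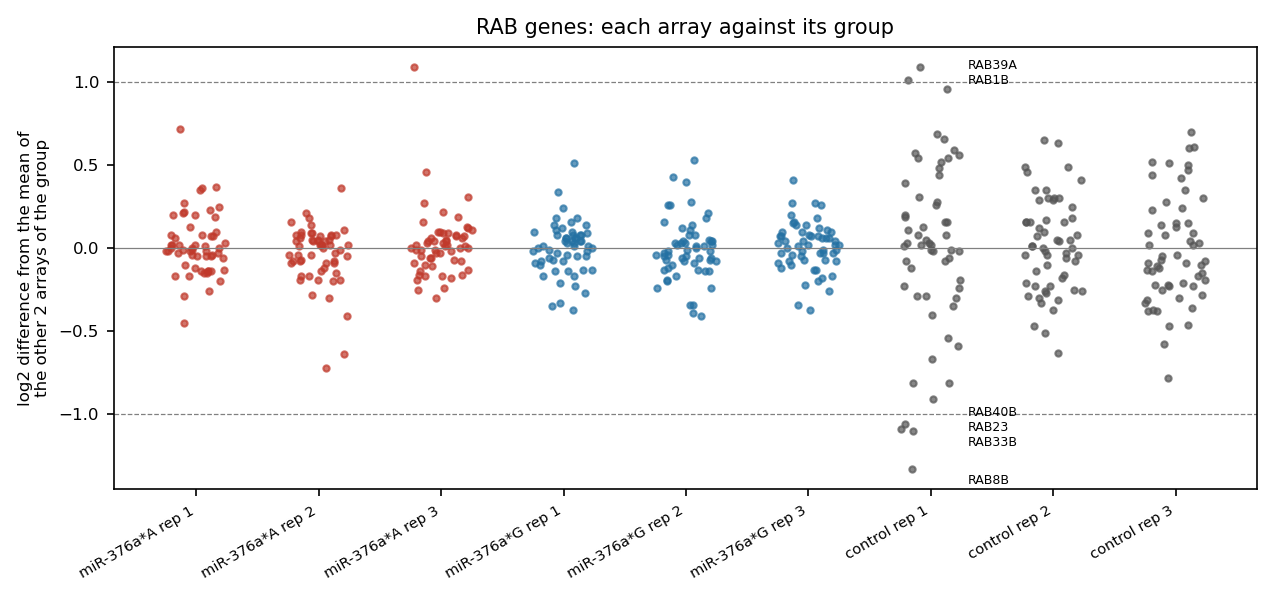
Each point is 1 RAB gene on 1 array, plotted as the log2 difference from the mean of the other 2 arrays of its group, and dashed lines mark 2-fold. On control replicate 1, 6 RAB genes pass the lines (4 lower, among them RAB8B, and 2 higher), against 1 on miR-376a*A replicate 3 and 0 on each of the other 7 arrays.

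In regulated secretion, RAB27A rose in miR-376a*A cells and the other 7 members were not called. RAB27A docks melanosomes, lytic granules and exosome-releasing endosomes at the plasma membrane. Its signal was 329, 368 and 357 in miR-376a*A cells, 297, 276 and 295 in miR-376a*G cells and 206, 264 and 203 in controls, so the 3 groups did not overlap. The fitted log2 change was 0.60 in miR-376a*A cells (SE 0.11, 1.52-fold, limma adjusted p = 0.027) and 0.32 in miR-376a*G cells (limma adjusted p = 0.199). The difference between the forms, 0.28, did not pass the threshold (limma adjusted p = 0.454). The other 4 RAB27A probe sets gave 0.45 to 0.95 in miR-376a*A cells, and none of them passed it with all arrays. Without control replicate 1, values of 0.51, 0.52 and 0.65 among them passed (limma adjusted p = 0.00589, 0.0111 and 0.0122). That of 0.60 did not (limma adjusted p = 0.0722). The paralog RAB27B, also of secretion, was at 936, 912 and 971 in miR-376a*A cells, 797, 822 and 752 in miR-376a*G cells and 449, 871 and 880.4 in controls. Its log2 fold change in miR-376a*A cells was 0.37 with all arrays and 0.06 without control replicate 1, the low one, and in miR-376a*G cells it was 0.12 with all arrays and -0.18 without that one. The difference between the forms for RAB27B, 0.24, missed the threshold with all arrays (limma adjusted p = 0.94) and passed without control replicate 1 (limma adjusted p = 0.0327). RAB3A, the RAB of synaptic vesicle release, was dim and at -0.37 in miR-376a*A and -0.51 in miR-376a*G cells, neither past the threshold.

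The last group holds RABs with other roles, and RAB40B had the largest rise of all 57 genes with each form. RAB40B carries a SOCS box and works as part of a ubiquitin ligase. Its signal was 179.7, 166 and 158 in miR-376a*A cells, 161, 161 and 166 in miR-376a*G cells and 34.9, 88.7 and 79.9 in controls. Every control lay below every other array, with control replicate 1 the lowest. In log2 units the change was 1.27 in miR-376a*A cells (SE 0.25, 2.41-fold, limma adjusted p = 0.0436) and 1.21 in miR-376a*G cells (SE 0.25, 2.32-fold, limma adjusted p = 0.0452). Without control replicate 1 both were smaller, with smaller errors, at 0.93 in miR-376a*A cells (limma adjusted p = 0.000412) and 0.87 in miR-376a*G cells (limma adjusted p = 0.000584). The second RAB40B probe set gave 0.35 in miR-376a*A and 0.31 in miR-376a*G cells, and the dimmest 0.09 and 0.22 in the same groups, none past the threshold. These values come from the fit over all single-gene probe sets. There the brightest RAB40B probe set also missed the threshold (limma adjusted p = 0.0522 in miR-376a*A and 0.0528 in miR-376a*G cells). The paralog RAB40C was at 305, 304 and 315 in miR-376a*A cells, 266, 259 and 274 in miR-376a*G cells and 409.5, 287 and 301 in controls, with log2 fold changes of -0.10 in miR-376a*A and -0.31 in miR-376a*G cells with all arrays, and 0.08 in miR-376a*A and -0.13 in miR-376a*G cells without control replicate 1. RAB40A was near the bottom of the scale, with all 9 signals below 13, at 0.31 in miR-376a*A and 0.26 in miR-376a*G cells.

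RAB39B, a RAB of neurons whose loss is linked to intellectual disability, rose in miR-376a*G cells. Its signal was 23.9, 16.6 and 18.4 in miR-376a*A cells, 27.1, 33.9 and 34.9 in miR-376a*G cells and 5.44, 7.89 and 14.7 in controls. The 3 groups did not overlap, but all values lay low on the scale, and its mean was below the median probe set. The log2 fold change was 0.98 in miR-376a*G cells (SE 0.15, limma adjusted p = 0.0115) and 0.55 in miR-376a*A cells (limma adjusted p = 0.152). A second dim probe set gave 0.74 in miR-376a*G cells, past the threshold. The paralog RAB39A was at 35.2, 10.2 and 18.8 in miR-376a*A cells, 27.6, 17.8 and 21.9 in miR-376a*G cells and 62.5, 20.1 and 20.6 in controls, and its groups overlapped. Its log2 fold change was -0.35 in miR-376a*A and -0.27 in miR-376a*G cells, and 0.01 in miR-376a*A and 0.10 in miR-376a*G cells without control replicate 1. RAB23, a negative regulator of Hedgehog signalling, was at 485, 440.4 and 389 in miR-376a*A cells, 463, 509 and 449 in miR-376a*G cells and 255, 586 and 608 in controls. The log2 fold change of this gene in miR-376a*A cells was -0.08 with all arrays and -0.44 without control replicate 1 (limma adjusted p = 0.0381). In miR-376a*G cells it was 0.01 with all arrays and -0.35 without that array. RAB42, named after its values were seen, was at 0.26 in miR-376a*A cells with all arrays. Without control replicate 1 it was at 0.45 in miR-376a*A cells (limma adjusted p = 0.0408). In miR-376a*G cells RAB42 was at 0.05 with all arrays and 0.24 without that array, neither past the threshold.

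**Figure D3:**
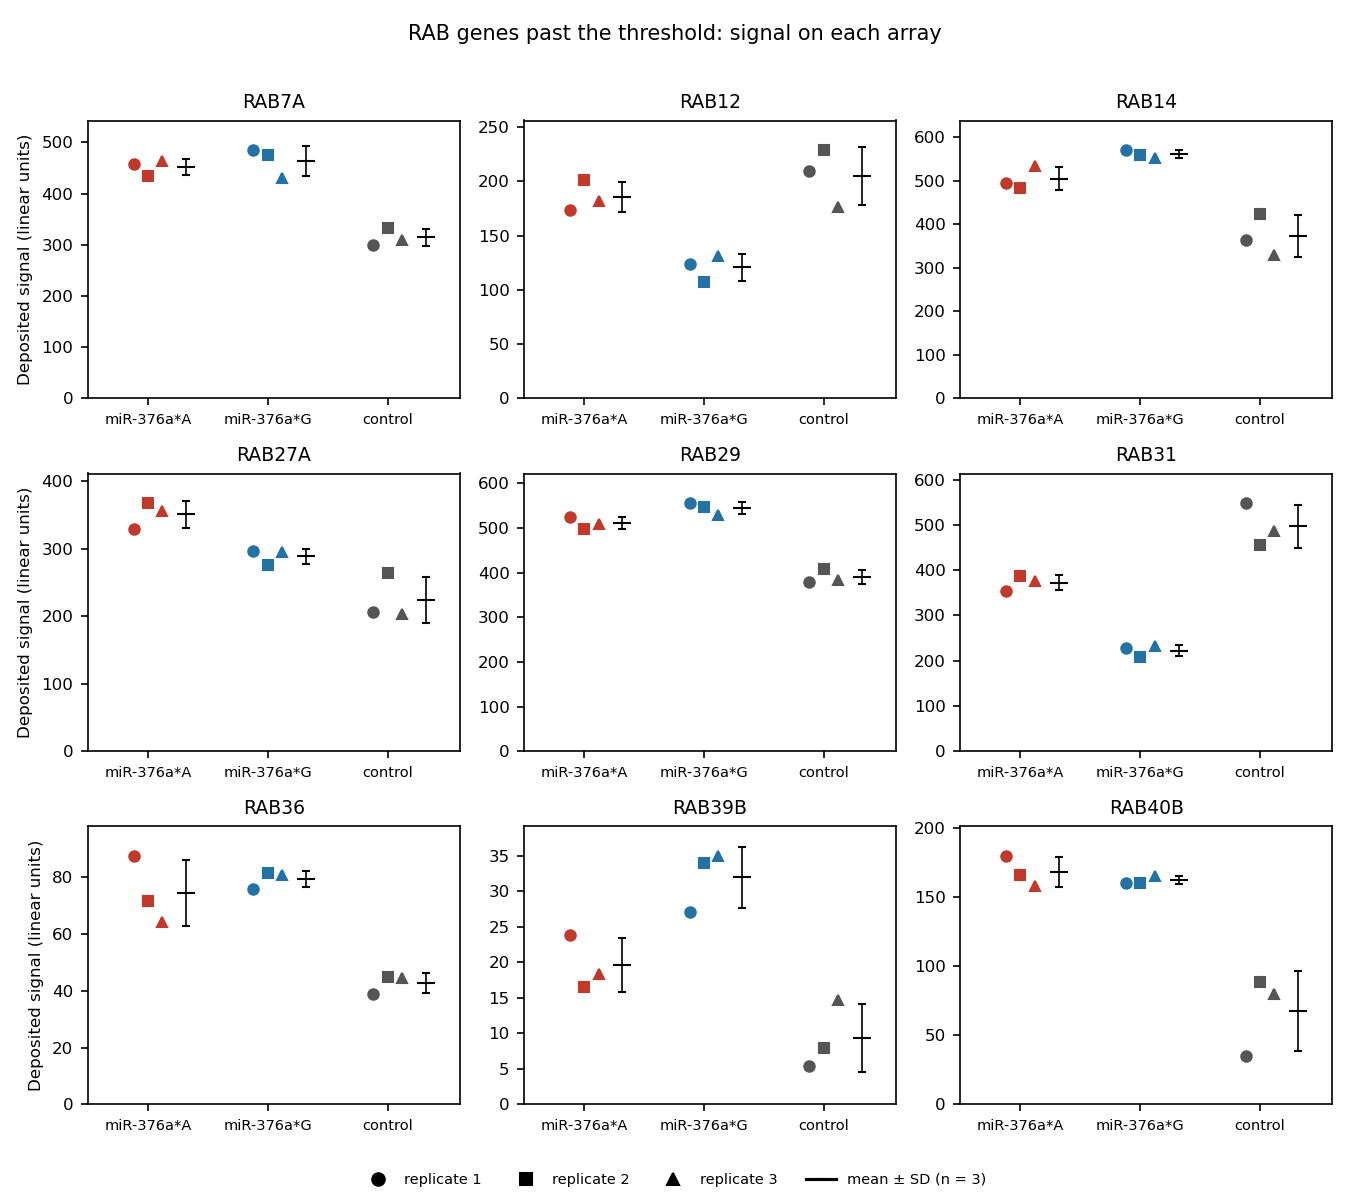
Deposited signal (linear axis from 0) on each array for the 9 RAB genes past the threshold in any comparison, with the mean and SD of 3 arrays. RAB7A, RAB14, RAB27A, RAB29, RAB36, RAB39B and RAB40B lie above control with both forms, while RAB12 and RAB31 lie lowest in miR-376a*G cells. Of those above control, RAB14, RAB27A and RAB39B were past the threshold with a single form.

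Across the 3 groups, 4 RAB genes were called with both forms against control (RAB7A, RAB29, RAB36 and RAB40B), 1 in miR-376a*A cells only (RAB27A) and 4 in miR-376a*G cells only (RAB12, RAB14, RAB31 and RAB39B). With all 9 arrays fitted together RAB31 was the one of these with a called difference between the forms, and those of RAB12, RAB14, RAB27A and RAB39B did not pass the threshold. In other fits some did: RAB12 passed without control replicate 1 or 3, with the mean over probe sets, with arrays weighted by quality and with only the 6 arrays compared, RAB27A with those 6 arrays (limma adjusted p = 0.048), and RAB39B with the weighted arrays (limma adjusted p = 0.0497). Of the 57 members, 22 have 1 single-gene probe set and 35 have several. In RAB31, RAB29 and RAB39B a further probe set was past the threshold in miR-376a*G cells, and in RAB29 also in miR-376a*A cells. In RAB7A, RAB12, RAB14, RAB27A and RAB40B no further probe set was, with all 9 arrays. Without control replicate 1, further probe sets passed in RAB27A with each form and in RAB14 with miR-376a*G, and none in RAB7A, RAB12 or RAB40B.

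**Figure D4:**
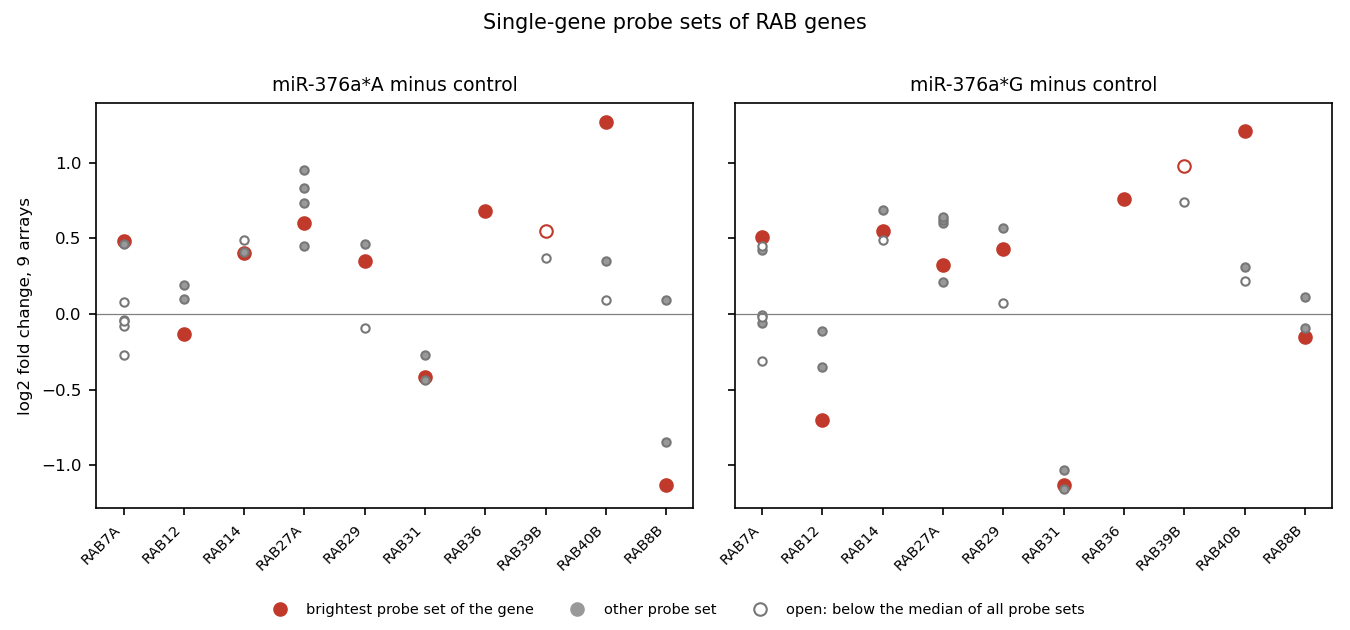
Log2 fold change of each single-gene probe set of the 9 called RAB genes and RAB8B, against control. Large red symbols are the brightest probe set of a gene and open symbols lie below the median of all probe sets. The 3 RAB31 probe sets lie together in miR-376a*G cells, while the 3 of RAB40B and the 3 of RAB8B are spread out.

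For RAB6A and RAB4B the rule picked dim probe sets, because the bright ones also match another gene. The bright probe set shared by RAB6A and RAB6D read 610, 656 and 602 in miR-376a*A cells, 818.5, 794 and 755 in miR-376a*G cells and 629, 798 and 836.5 in controls, while the single-gene RAB6A values came from signals below 10. A probe set shared by RAB4B and its read-through transcript MIA-RAB4B read 81.4, 91.1 and 84.6 in miR-376a*A cells, 99.2, 74.5 and 83.2 in miR-376a*G cells and 55.5, 61.7 and 52 in controls. On further probe sets of the same genes, each form overlapped the controls. The first of them read 77.3, 72.8 and 76.9 in miR-376a*A cells, 79.2, 95.8 and 73.3 in miR-376a*G cells and 51.3, 79.9 and 56 in controls. The second read 87.3, 81 and 94.6 in miR-376a*A cells, 100.6, 79.2 and 85.3 in miR-376a*G cells and 29.5, 85.4 and 70.3 in controls. These shared probe sets were not tested. The role lists also name RAB6C, RAB19, RAB34, RAB41 and RAB44, which were not analysed here.

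The genes that run the RAB cycle were read in the same way, 120 of them in all. Of the 120, 2 were called with miR-376a*A against control (RABGGTB and RAB3GAP1, both lower), 3 with miR-376a*G against control (DENND2D higher, DENND1B and TBC1D4 lower) and 1 between the forms (RABGGTB, lower in miR-376a*A cells). These are 1.67%, 2.5% and 0.833% of the cycle genes, near the 1.71%, 2.35% and 1.36% of all genes called in the same comparisons. By list, 1 of 5 measured core genes fell in miR-376a*A cells. Of 43 GEFs, 1 rose and 1 fell in miR-376a*G cells. Of 33 GAPs, 1 fell with each form. Of 39 effectors, 0 were past the limma threshold in any comparison, while 2 in miR-376a*A cells, 4 in miR-376a*G cells and 2 between the forms had an unadjusted p under 0.05. Of all 19775 genes, 2342, 2793 and 1719 had such a p in the same comparisons. Without control replicate 1, 11 of the 120 were called in miR-376a*A cells (3 higher and 8 lower), 18 in miR-376a*G cells (4 higher and 14 lower) and 5 between the forms. Those shares are 9.17%, 15% and 4.17%, against 6.06%, 8.28% and 4.92% of all genes.

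RABGGTB, the catalytic subunit of the RAB geranylgeranyl transferase, separated the 2 forms. Its signal was 276, 295 and 281 in miR-376a*A cells, 675, 661 and 695 in miR-376a*G cells and 536, 614 and 547 in controls. The miR-376a*A arrays lay below all others, and the miR-376a*G arrays lay above all controls. On the log2 scale the change was -0.98 in miR-376a*A cells (SE 0.07, 1.97-fold lower, limma adjusted p = 0.000241) and 0.24 in miR-376a*G cells (limma adjusted p = 0.164). The difference between the forms was -1.21 (SE 0.07, 2.32-fold lower in miR-376a*A cells, limma adjusted p = 9.73e-05). Both calls were kept in all 19 alternative analyses. RABGGTB has 1 single-gene probe set. A probe set it shares with 3 small nucleolar RNA genes read 500.4, 473 and 435 in miR-376a*A cells, 889, 906 and 836 in miR-376a*G cells and 473.5, 841 and 765 in controls, and control replicate 1 was low on it. Another shared with the same genes read 126.2, 102.7 and 87.6 in miR-376a*A cells, 258.1, 224.6 and 197.2 in miR-376a*G cells and 72.1, 302.2 and 255.2 in controls. There control replicate 1 was the lowest array, and on both probe sets miR-376a*A overlapped the controls. The partner subunit RABGGTA was at 0.14 in miR-376a*A cells and 0.03 in miR-376a*G cells, and the escort protein gene CHML at -0.09 in miR-376a*A and 0.03 in miR-376a*G cells. CHML was past the threshold, and lower with both forms, without control replicate 1, at -0.43 in miR-376a*A cells (limma adjusted p = 0.0086) and -0.30 in miR-376a*G cells (limma adjusted p = 0.0331). GDI2, which extracts RABs from membranes, was at 0.00 in miR-376a*A and 0.05 in miR-376a*G cells.

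RAB3GAP1, the catalytic subunit of the complex that inactivates RAB3 and activates RAB18, was at 327, 300.1 and 299 in miR-376a*A cells, 467, 468 and 422 in miR-376a*G cells and 396, 560.5 and 551 in controls. Fitted on the log2 scale, its change in miR-376a*A cells was -0.69 (SE 0.12, limma adjusted p = 0.0229), and its other 2 probe sets above the median gave -0.20 and -0.39, not past the threshold. RAB3GAP1 was also called without control replicate 1 in miR-376a*G cells, at -0.31 (limma adjusted p = 0.0307), and between the forms, at -0.51 (limma adjusted p = 0.00198). TBC1D4, a GAP known for holding glucose transporter vesicles back through RAB10 and related RABs, was at 106, 111 and 114 in miR-376a*A cells, 64.4, 67.3 and 68.8 in miR-376a*G cells and 102, 165 and 195 in controls. Its log2 fold change in miR-376a*G cells was -0.98 (SE 0.17, limma adjusted p = 0.0214), and a second probe set gave -1.13, also past the threshold. TBC1D4 was also called without control replicate 1 in miR-376a*A cells, at -0.59 (limma adjusted p = 0.00732), and between the forms, at 0.61 (limma adjusted p = 0.00348). In miR-376a*G cells TBC1D4 was at -1.2 without that array. DENND1B, a GEF of RAB35, was at 84.2, 76.4 and 72.6 in miR-376a*A cells, 61.8, 63.7 and 69.3 in miR-376a*G cells and 121, 94.8 and 122 in controls, a log2 fold change of -0.66 in miR-376a*G cells (limma adjusted p = 0.0385). Its second brightest probe set gave -0.56 in miR-376a*G cells (limma adjusted p = 0.284), and the dimmer ones lay between -0.18 and 0.06. None of these passed the threshold with all arrays. Without control replicate 1 the second brightest passed, at -0.84 (limma adjusted p = 0.00225). DENND2D, another protein with a DENN exchange domain, rose by 0.74 on the log2 scale in miR-376a*G cells (limma adjusted p = 0.0214), with signals of 15.7, 19.2 and 8.01 in miR-376a*A cells, 16.7, 19.9 and 18.1 in miR-376a*G cells and 4.74, 3.56 and 6.68 in controls, all low on the scale. Its other probe set, also dim, gave 0.05 in miR-376a*G cells and was not past the threshold (limma adjusted p = 0.915). RAB35 itself was at -0.17 in miR-376a*A cells and -0.24 in miR-376a*G cells, and was not past the threshold. Without control replicate 2, the calls of RAB3GAP1, TBC1D4 and DENND2D were lost, and without control replicate 3 those of RAB3GAP1, TBC1D4 and DENND1B. All 4 of these calls were also lost without single arrays of the form concerned.

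**Figure D5:**
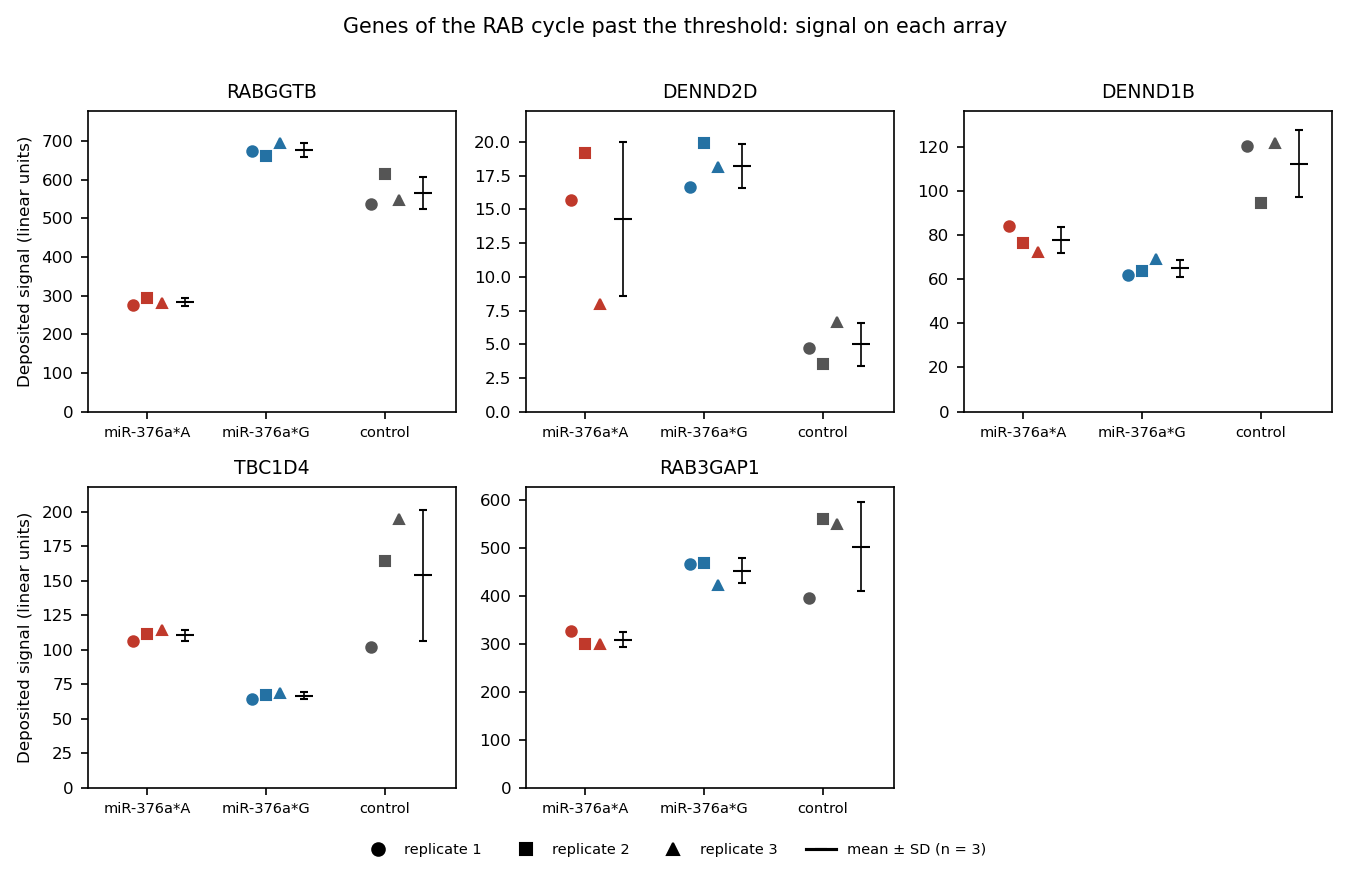
Deposited signal (linear axis from 0) on each array for the 5 genes of the RAB cycle past the threshold, with the mean and SD of 3 arrays. RABGGTB is lowest in miR-376a*A cells and highest in miR-376a*G cells, while TBC1D4 and DENND1B are lowest in miR-376a*G cells.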

How the data were processed

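The authors deposited intensities, which are linear signals, for 54675 probe sets on 9 arrays. The submitters' processing notes name GCOS 1.4.0.036. Every array had a trimmed mean of 100.01, so a change common to most transcripts would not be seen. How probes were summarised is not given in the sources used here. The labels call the replicates biological and name no separate cultures beyond that.

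Intensities were turned into log2(signal + 16). Array medians then ranged over 0.20, and the values were quantile normalized. Fold changes are on this scale and understate changes of dim genes. Of the probe sets, 41097 had 1 gene symbol, 1801 several and 11777 none in the table used here. All 57 members matched RefSeq genes of GRCh38.p14 by gene ID, and 0 had changed symbols. No genome coordinates of genes are given, since the files name no build.

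Groups were compared with limma 3.58.1 in R 4.3.3 (lmFit, eBayes with a trend, 3 groups fitted together), 2-sided, with Benjamini-Hochberg adjustment over all 19775 genes. Values of further probe sets come from the same fit over all 41097 single-gene probe sets. An exact test of 3 against 3 arrays cannot go below 0.1, and the number of arrays limits the precision. RAB genes, their 6 role lists and the 4 lists of cycle genes were chosen with earlier results of these data known. Named are all members past the threshold, their lettered paralogs, the 3 largest changes and 2 brightest members of each role list, and cycle genes past the threshold. Alternatives covered normalization, pseudocounts of 1 and 64, a brightness filter, the choice of probe set, array weights, the arrays fitted, the replicate number as a block, and each array left out.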

Additional observations from a re-analysis of the deposited data

Results flagged for a closer look

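RAB31 was set apart by a difference between the 2 forms under the same contrast. Its log2 fold change against control was -0.42 in miR-376a*A cells and -1.13 in miR-376a*G cells, and the tested difference between them was 0.71 (SE 0.10, limma adjusted p = 0.00758). The signals were higher in miR-376a*A cells in 3 of 3 arrays, and both forms lay below all controls. The call held in 16 of 19 alternative analyses. It was lost without miR-376a*A replicate 2 (limma adjusted p = 0.0599), without miR-376a*A replicate 3 (0.0564) and without miR-376a*G replicate 2 (0.055).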

How the results depend on the processing

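Of 20 results past the threshold (RAB and cycle genes, per comparison), 378 repeats under the alternatives kept 241 and lost 137, and none reversed. The number of RAB genes called with miR-376a*A against control, 5 as reported, was 9 with arrays weighted by quality (7 higher and 2 lower), 0 with the replicate block and 0 with only the 6 arrays compared. With 1 array left out it ranged from 0 to 12. With miR-376a*G against control, 8 as reported, it was 3 with the replicate block (RAB7A, RAB31 and RAB39B, while RAB12, RAB14, RAB29, RAB36 and RAB40B were lost at limma adjusted p = 0.0951, 0.0717, 0.0552, 0.0767 and 0.0914), 1 with the 6 arrays and 1 to 10 with 1 array left out. With miR-376a*A against miR-376a*G, 1 as reported, it was 2 with the mean over all probe sets, 5 with array weights, 5 with the 6 arrays and 0 to 5 with 1 array left out. The cause of these moves was not tested. Over all genes, 339, 464 and 269 calls in these comparisons became 960, 1279 and 1111 with array weights, 112, 102 and 984 with the 6 arrays, and 188, 244 and 155 with the replicate block. With 1 array left out they ranged from 128 to 1199, 172 to 1637 and 116 to 972, each highest without control replicate 1. Arrays centred on their medians gave 163 higher and 86 lower calls in miR-376a*A cells (65.5% higher, against 55.2%) and 217 higher and 125 lower in miR-376a*G cells (63.5%, against 53.4%), and 4 and 7 RAB genes. RAB7A was lost with the mean over its probe sets (limma adjusted p = 0.753 in miR-376a*A cells and 0.462 in miR-376a*G cells), and so were RAB29 and RAB3GAP1 in miR-376a*A cells (0.173 and 0.28) and DENND1B and RAB12 in miR-376a*G cells (0.488 and 0.0548). With _x_at and _s_at probe sets left out, RAB7A was lost with both forms (limma adjusted p = 0.947 in miR-376a*A and 0.484 in miR-376a*G cells). So were RAB3GAP1 in miR-376a*A cells (0.558) and DENND1B and DENND2D in miR-376a*G cells (0.274 and 0.912). The replicate block also lost DENND2D and DENND1B in miR-376a*G cells (0.0687 and 0.0857) and RAB3GAP1 in miR-376a*A cells (0.0801).

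Replicate numbers were not treated as pairing the arrays. Between miR-376a*G and control, same-numbered arrays deviated together with r of 0.113, 0.116 and 0.093 over all genes, and 0.156, 0.189 and 0.123 over genes above the median. Between miR-376a*A and control r was -0.235, 0.023 and -0.24. Brightness limits RAB39B, RAB4B, RAB40A, RAB6A and DENND2D, whose signals lie near the bottom of the scale.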
